A study of Mus musculus with 30 samples.

Results

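Metallothioneins are small, cysteine-rich proteins that bind zinc and copper in the liver, and the genes studied here are 2 of them together with 4 genes that sense or carry metal ions. The 6 genes were taken by name, as every probe on the array that is not a control and carries the gene name Mt1, Mt2, Mtf1, Slc30a1, Slc30a10 or Slc39a4. This gave 11 of the 41173 probes on the array and 6 of the 21071 genes tested, so each of the 6 genes passed the filter on dim probes. Mt1 had 2 probes, Mt2 had 1, Mtf1 had 3, Slc30a1 and Slc30a10 had 2 each and Slc39a4 had 1.

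Liver RNA from 30 mice was measured on 1-colour oligonucleotide arrays, with 1 mouse to an array. There were 2 strains, C57BL/6 (called B6) and DBA/2 (called D2). Mice of either strain ate a balanced diet (200 mg iron per kg), an enriched diet (8.3 g iron per kg) or a deficient diet (under 3 mg iron per kg), which gave 6 groups of 5 mice. No mutant allele or drug is named for any group. The sources used here do not give age, sex, time on diet, or the zinc, copper and manganese in the food. The study asked how liver gene expression follows iron stores, and each strain's balanced group is its control.

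Zinc entering a cell is bound by metallothioneins and by the transcription factor Mtf1, whose zinc fingers let it attach to metal response elements, short motifs in the promoters of Mt1, Mt2 and Slc30a1. Slc30a1 (ZnT1) carries zinc out of the cell across the plasma membrane. Slc30a10 (ZnT10) belongs to the same family and is known mainly for carrying manganese out of liver cells, and Slc39a4 (ZIP4) brings zinc into cells and is best known from the intestine. The 6 genes are therefore not all exporters of zinc. In liver, metallothionein genes are also known to respond to glucocorticoids, to the acute phase response and to oxidative stress.

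The promoters are shown because Mt1 and Mt2 moved together and because Mtf1 is the known activator of both. RefSeq promoter windows (build GRCm38.p6, from a C57BL/6J genome; the D2 sequence was not used here) were matched by symbol for 5 of the 6 genes, all but Slc39a4. Each window of 300 bases runs from 250 bases before a transcript start to 50 bases after it. The core of the metal response element was searched as TGCGCNC and TGCACNC on both strands, and capitals mark matches. For Mt2 and Slc30a10 the 250 bases before the start are printed, on the plus strand at chr8:94172368-94172617 and chr1:185454598-185454847. For Mt1 (chr8:94179054-94179083 and chr8:94179089-94179118) and Slc30a1 (chr1:191906726-191906755), where the annotated gene begins further upstream than the start used, only stretches of 30 bases that hold a match are printed, also from the plus strand.
Mt2 upstream: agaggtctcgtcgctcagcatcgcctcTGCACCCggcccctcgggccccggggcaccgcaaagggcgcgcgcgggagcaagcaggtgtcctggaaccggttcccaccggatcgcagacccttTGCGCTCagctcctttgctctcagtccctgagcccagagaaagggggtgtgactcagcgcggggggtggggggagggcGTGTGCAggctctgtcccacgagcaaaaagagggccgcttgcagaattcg
Mt1 before the start: gcggtcccgctgTGCACACtggcgctccag
Mt1 from the start: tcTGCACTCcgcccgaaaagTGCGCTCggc
Slc30a1 before the start: aacgggggttccGAGTGCAaagcaaagttt
Slc30a10 upstream: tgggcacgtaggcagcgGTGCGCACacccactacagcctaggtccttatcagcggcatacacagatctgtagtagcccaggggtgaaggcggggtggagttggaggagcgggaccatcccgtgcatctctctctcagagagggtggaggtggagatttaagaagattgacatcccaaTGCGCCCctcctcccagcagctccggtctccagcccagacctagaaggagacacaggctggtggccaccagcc

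The Mt2 window held 4 matches, 3 of them before the start, and windows with at least 4 made up 0.517% of the 32851 windows in the table. The Mt1 window held 3 matches, the first beginning 23 bases before the start used and the others at bases 3 and 21 counted from it. Matches around other possible starts of Mt1 were not counted, so the positions and the number hold for that start only. The Slc30a10 window also held 3 matches, of which 2 overlap on opposite strands and so share most of their bases, and 1.97% of all windows held at least 3. The Slc30a1 window held 2 matches, and 7.11% of windows held at least 2. The Mtf1 window held none, and 25.7% of windows held at least 1. A match is a description of the letters, not a measured binding site. In the same RefSeq annotation Mt4, Mt3, Mt2 and Mt1 are neighbours, with a long non-coding RNA gene between Mt3 and Mt2.

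The RNA carried liver markers. All 12 hepatocyte markers, among them albumin (Alb), were well above background on 30 of 30 arrays, and their summed signal lay between 1987000 and 2226000 in B6 and between 1899000 and 2225000 in D2. Of the intestinal genes, Fabp2, Lgals4 and Alpi were well above background on 30 of 30 arrays, Vil1 on 15, Cdx2 on 1 and Cdx1 and Cdh17 on 0. Between 63.1% and 78.8% of spots were well above background per array. The arrays lay on 10 slides scanned on 3 days (5, 11 and 14 arrays), and no group lay on a single day. The groups were spread unevenly, so strain and diet are partly tied to day and slide. Day 1 held no enriched or deficient B6 mouse, 4 enriched B6 mice lay on day 3, and some slides held D2 mice only. In whole liver, fewer cells of a type and less RNA per cell cannot be told apart.

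Mt1 was higher on the iron-enriched diet than on the balanced diet. Averaged over the strains it rose by 1.31 on the log2 scale (95% interval 0.74 to 1.89), which is 2.49-fold, and 10 of 10 mice on the enriched diet lay above the balanced mean of their strain. Mt2, its neighbour, was 0.92 higher (0.23 to 1.61) and did not pass, with an adjusted p of 0.172 from limma. The 4 other genes did not pass either, and their differences ran from -0.02 for Mtf1 to 0.32 for Slc30a10. Of the 6 genes 1 was called, beside 2.23% of all 21071 genes in the same comparison (limma, Benjamini-Hochberg adjusted p under 0.05). The median difference of the 6 genes was 0.28, beside 0.01 over all genes.

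Levels are log2 of the quantile-normalised signal and are compared between groups for 1 probe at a time. In B6 on the balanced diet, Mt1 read 13.88, 13.31, 12.97, 14.53 and 13.91. In B6 on the enriched diet it read 15.49, 15.80, 15.64, 15.64 and 14.37. Of the enriched B6 mice 4 lay above all balanced B6 mice, and the fifth, at 14.37, lay just under the highest of them. In D2, Mt1 read 15.61, 14.91, 15.45, 16.13 and 15.29 on the balanced diet. On the enriched diet it read 15.98, 16.67, 16.65, 16.59 and 16.29. The D2 groups overlapped by 1 pair of mice, the highest balanced mouse passing the lowest enriched mouse.

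**Figure D1:**
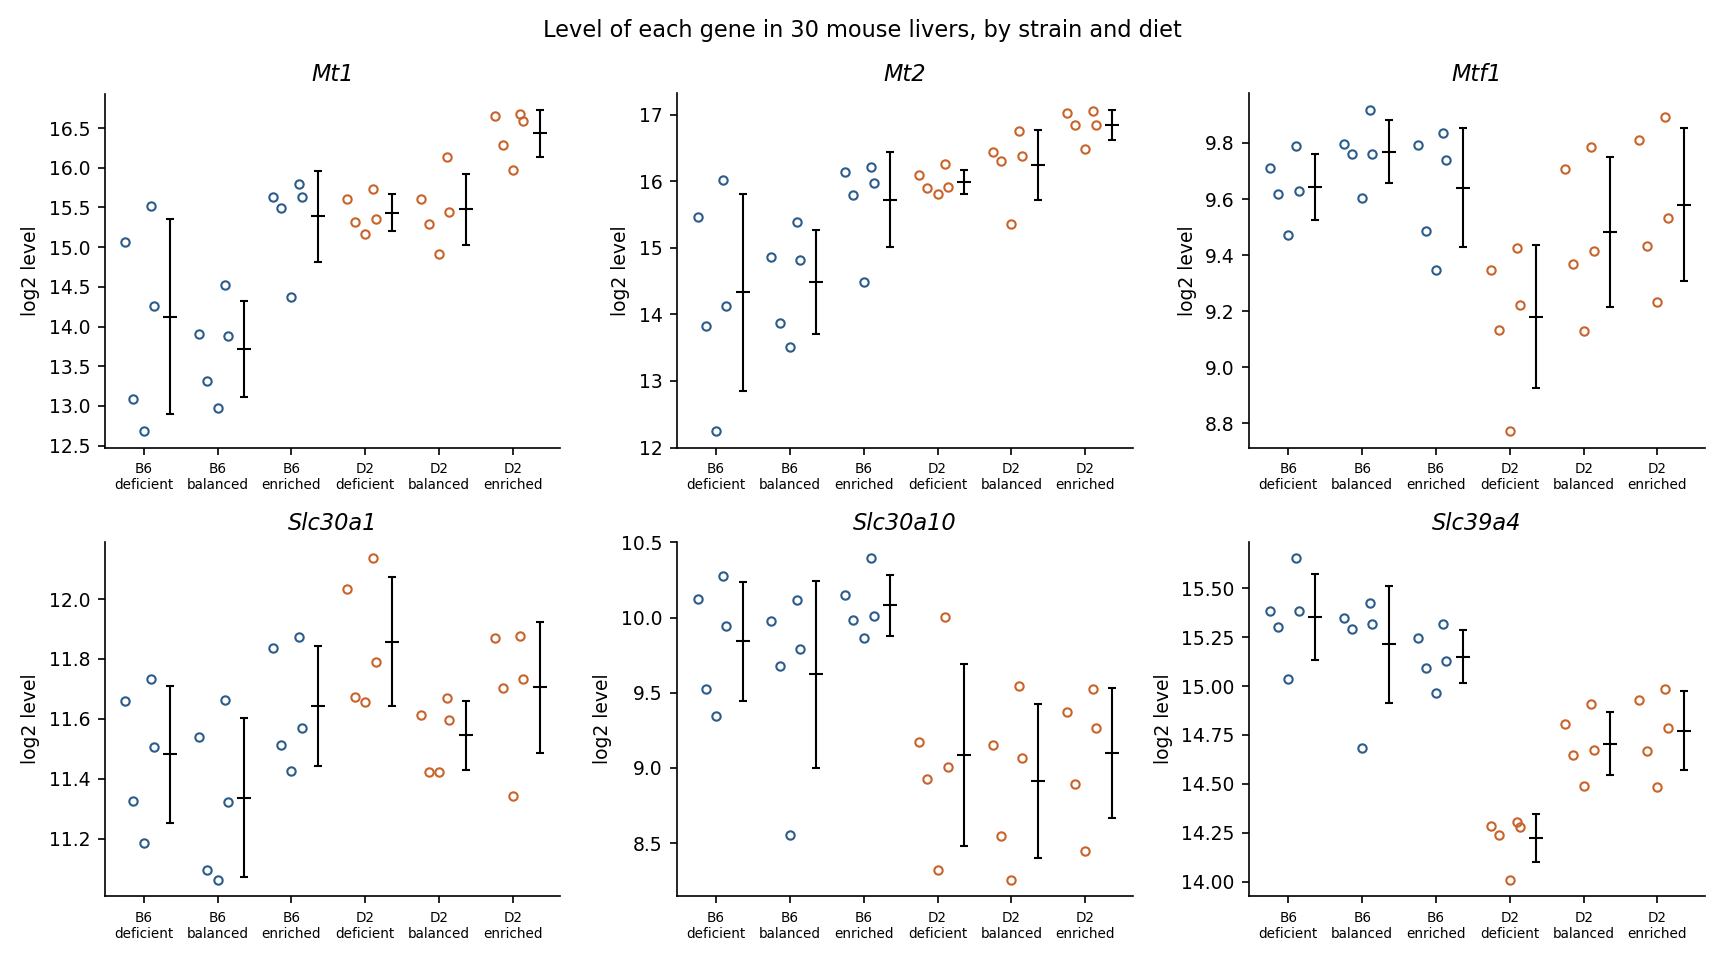
Level of each of the 6 genes in every mouse. The vertical axes give the log2 quantile-normalised signal of the main probe and differ between panels, open points are mice (5 per group, spread sideways only for legibility), and black bars are the mean and SD of each group. The 5 Slc39a4 values of deficient D2 mice, 14.01 to 14.31, lie below all other mice, and the Mt1 values of deficient B6 mice are the most widely spread of that gene.

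Within B6 the Mt1 increase was 1.67 (SE 0.396; limma adjusted p = 0.0103), or 3.18-fold, in a comparison in which 5.83% of all genes were called. Within D2 it was 0.96 (SE 0.396; limma adjusted p = 0.789) and was not called, in a comparison in which 0.0902% of all genes were called. Both SEs come from 1 spread shared by all 6 groups. The SDs of Mt1 were 0.449 in balanced and 0.298 in enriched D2, and ran from 0.234 (deficient D2) to 1.229 (deficient B6). The difference between the strains' increases, D2 minus B6, was -0.71 (95% interval -1.86 to 0.44; limma adjusted p = 0.709), so a larger response in B6 was not shown, and 1.11% of all genes were called for such a difference. On the other Mt1 probe the increase in B6 was 0.61 (SE 0.607; limma adjusted p = 0.703) and in D2 0.84, a difference of 0.23 (95% interval -1.54 to 1.99). Without the B6 enriched mouse at 14.37, or any other mouse in turn, the increase averaged over strains lay between 1.22 and 1.44 and stayed called.

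For the increase averaged over strains, limma gave an adjusted p of 0.00848 for Mt1, with an SE of 0.28. With slide as a block the increase was 1.38 and its limma adjusted p 0.0688, and over all alternatives the adjusted p ran from 0.00212 to 0.623. Within the second scan day (11 arrays) the increase was 1.63 and within the third (14 arrays) 1.20, neither of them called. The other Mt1 probe was 0.72 higher (SE 0.429) and was not called. In this comparison, in which 2.23% of all genes were called, 1 of 10 sinusoidal endothelial markers, Stab1, also rose (0.27). Their summed signal in B6 lay between 34020 and 42800 in balanced and between 42510 and 47750 in enriched livers, and in D2 between 30470 and 33090 and between 32640 and 35940. Their part in the Mt1 result was not tested.

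Mt2 followed the same order of groups at the top. In B6 it read 14.81, 13.87, 13.50, 15.40 and 14.86 on the balanced diet. On the enriched diet the B6 mice read 15.98, 16.22, 16.14, 15.80 and 14.48. As for Mt1, 4 of 5 enriched B6 mice lay above all balanced B6 mice, and the remaining mouse was the one that was also lowest for Mt1. In D2, Mt2 read 16.45, 15.36, 16.31, 16.76 and 16.38 on the balanced diet. On the enriched diet the D2 mice read 16.48, 17.06, 16.84, 17.02 and 16.86. The within-strain differences were 1.24 in B6 (SE 0.474) and 0.60 in D2 (SE 0.474), and neither was called by limma (adjusted p = 0.139 and 0.996).

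No change of the metallothioneins on the iron-deficient diet passed the test. Averaged over strains, Mt1 differed from the balanced diet by 0.18 (95% interval -0.39 to 0.76) and Mt2 by -0.21 (-0.90 to 0.48). Of the 6 genes 0 were called by limma, while 8.08% of all genes were; at an unadjusted p under 0.05, Mtf1 (-0.21) and Slc30a1 (0.23) would have been included. In deficient B6 mice Mt1 read 13.08, 15.52, 12.68, 14.26 and 15.07, an SD of 1.23 against 0.60 on the balanced diet. In deficient D2 mice it read 15.61, 15.16, 15.35, 15.32 and 15.74, with an SD of 0.23. The deficient B6 mice therefore covered nearly the whole range of Mt1 seen in that strain, and the deficient D2 mice a narrow part of it.

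Set directly against each other, the iron-enriched and the iron-deficient livers differed in both metallothioneins. Mt1 was 1.13 higher on the enriched diet (95% interval 0.56 to 1.71; limma adjusted p = 0.00989) and Mt2 1.13 higher (0.44 to 1.81; limma adjusted p = 0.033), each in 10 of 10 mice against the deficient mean of their strain. In D2 the groups did not overlap for either gene, nor for 6.5% of all genes. Deficient D2 mice read 16.26, 15.82, 15.91, 15.90 and 16.09 for Mt2, and deficient B6 mice 13.83, 16.02, 12.24, 14.12 and 15.46. Here 2 of the 6 genes were called, beside 8.84% of all genes. The Mt2 call was narrow. It was lost when any 1 of 11 mice was left out, with limma adjusted p-values of 0.0502 to 0.0603. These were B6 deficient replicates 1, 3 and 4, B6 enriched replicates 1 to 4, D2 deficient replicates 2 and 4, and D2 enriched replicates 2 and 4. With slide as a block the differences were 1.23 for Mt1 and 1.13 for Mt2 and neither was called (limma adjusted p = 0.0807 and 0.162). The other Mt1 probe gave 0.96 and was not called (limma adjusted p = 0.203). Over all alternatives the adjusted p ran from 0.00157 to 0.465 for Mt1 and from 0.00615 to 0.623 for Mt2.

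**Figure D2:**
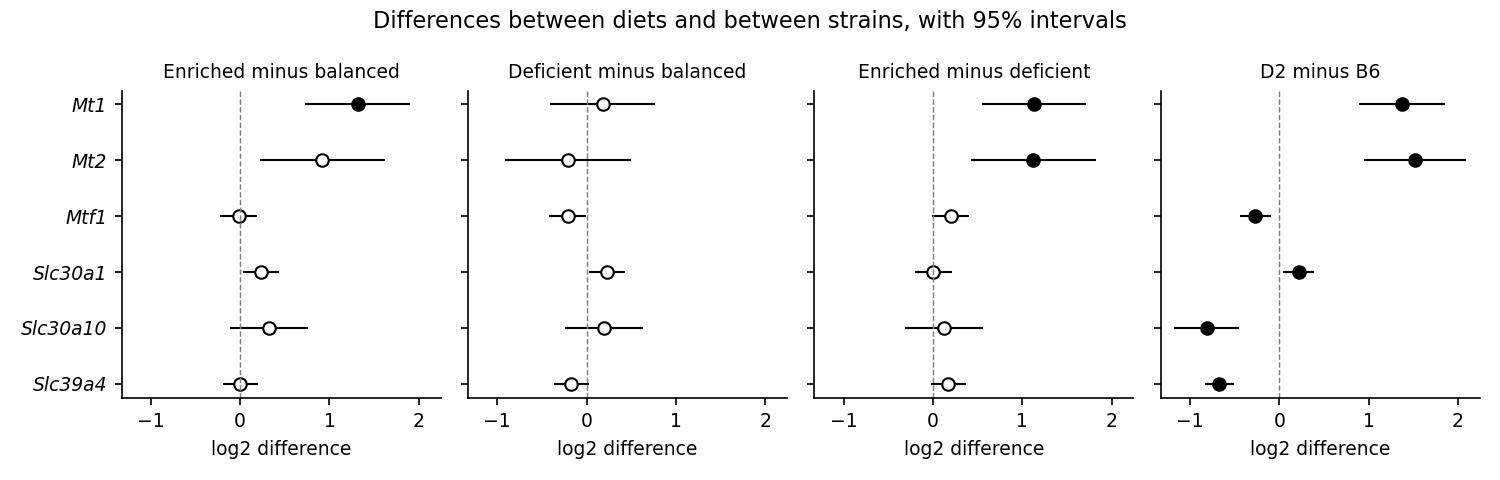
Differences of the 6 genes, on the log2 scale, for 3 diet comparisons averaged over strains and for the strains averaged over diets. Points are estimates, lines 95% intervals, and filled points passed an adjusted p of 0.05 over all 21071 genes. Mt1 and Mt2 lie to the right of 0 in the enriched comparisons and in D2 minus B6, and Slc30a10 and Slc39a4 lie to the left in D2 minus B6.

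Slc39a4, the zinc importer, fell on the deficient diet in D2. Deficient D2 mice read 14.28, 14.31, 14.24, 14.28 and 14.01. Balanced D2 mice read 14.67, 14.91, 14.65, 14.49 and 14.81, all of them higher. Enriched D2 mice read 14.99, 14.67, 14.93, 14.79 and 14.48, again all above the deficient mice, as for the 6.5% of all genes whose enriched and deficient D2 groups did not overlap. The fall from balanced to deficient was -0.48 (95% interval -0.74 to -0.22; limma adjusted p = 0.0261), a 1.4-fold lower level. It was the 1 call among the 6 genes, beside 4.68% of all genes called and 6.51% without overlap between these groups.

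In B6 the same diet left Slc39a4 0.14 above the balanced level (95% interval -0.12 to 0.40; limma adjusted p = 0.733). Balanced B6 mice read 15.43, 15.32, 15.35, 14.68 and 15.29. Deficient B6 mice read 15.39, 15.04, 15.66, 15.39 and 15.30, and the groups overlapped. None of the 6 genes was called in B6 on this diet, beside 1.79% of all genes, and none had an unadjusted limma p under 0.05. The difference between the strains' changes was -0.62 (95% interval -0.99 to -0.26), with an unadjusted limma p of 0.0017 but an adjusted p of 0.406, and 0.019% of all genes were called for it. The change in D2 lost its call without any 1 of 4 mice (balanced replicates 2 and 5, deficient replicates 3 and 5), with limma adjusted p-values of 0.0533 to 0.0703, and with slide as a block it was -0.41 (adjusted p = 0.11). Its adjusted p ran from 0.00374 to 0.749 over all alternatives. Within scan days 1, 2 and 3 it was -0.18, -0.60 and -0.55.

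Enriched B6 mice read 15.13, 15.24, 15.32, 15.09 and 14.97 for Slc39a4, within the range of the balanced B6 mice. Averaged over strains the enriched diet differed from the balanced one by 0.00 (95% interval -0.18 to 0.18). Stellate cell markers, which label the vitamin A storing cells of the liver, were higher on the deficient diet for 4 of 10 genes, averaged over strains. In that comparison 8.08% of all genes were called, and 48.1% of the called genes were higher. In D2 the summed signal of the stellate cell markers lay between 45800 and 69330 in balanced and between 61850 and 82170 in deficient livers. For 4 intestinal epithelial markers that could be tested, the D2 sums lay between 55300 and 73150 and between 55670 and 70150. The part of either list in the Slc39a4 result was not tested.

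The main probes of the 6 genes all differed between the strains when the diets were averaged, in a comparison in which 50.1% of all genes were called. Mt2 and Slc39a4 have no second probe, and whether D2 sequence differences alter the signal of any probe was not tested. Of the 6 genes 3 were higher in D2, beside 25.9% of all genes, and 3 were lower, beside 24.2%. Of all genes called, 51.7% were higher in D2, or 28.6% where the arrays were not normalised to each other. Both metallothioneins were higher in D2, Mt1 by 1.37 (95% interval 0.90 to 1.84; 2.59-fold) and Mt2 by 1.52 (0.96 to 2.08; 2.86-fold), in 15 of 15 D2 mice against the B6 mean of their diet. The second Mt1 probe gave 1.98 (SE 0.35). The importer Slc39a4 was lower in D2, by a difference of -0.67 (-0.82 to -0.52), and so was the transporter gene Slc30a10, at -0.82 (-1.16 to -0.47). On their main probes Slc30a1 was higher in D2 (0.22; 0.06 to 0.37) and Mtf1 lower (-0.27; -0.43 to -0.11). limma adjusted p-values were 1.22e-05 for Mt1, 3.61e-05 for Mt2, 1.04e-08 for Slc39a4, 0.000213 for Slc30a10, 0.0212 for Slc30a1 and 0.00517 for Mtf1.

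On the balanced diet alone, which compares the strains at ordinary iron intake, Mt1 was 3.38-fold and Mt2 3.40-fold higher in D2 (differences of 1.76 and 1.77; limma adjusted p = 0.00109 and 0.00526), and all 5 D2 mice read above all 5 B6 mice for Mt1. The strains did not overlap on this diet for 19.1% of all genes. Of the 6 genes 3 were called there, the third being Slc39a4 (-0.51), beside 30.1% of all genes. On the enriched diet 3 of the 6 were called, beside 35.5% of all genes: Mt1 (1.05), Slc30a10 (-0.98) and Slc39a4 (-0.38). The strains did not overlap on this diet for Mt1, Mt2 and Slc30a10, nor for 27.7% of all genes. The enriched Mt1 call was lost without any 1 of 6 enriched mice, namely B6 replicates 1 and 5 and D2 replicates 2 to 5, with limma adjusted p-values of 0.0537 to 0.138. Without B6 replicate 5 the difference was 0.79. With slide as a block none of the 3 was called on the enriched diet, at 1.17 for Mt1 (limma adjusted p = 0.094), -0.90 for Slc30a10 (limma adjusted p = 0.0501) and -0.40 for Slc39a4 (limma adjusted p = 0.0639). On the deficient diet 5 of the 6 were called, beside 28.4% of all genes. They were Mt1 (1.31), Mt2 (1.66), Mtf1 (-0.46), Slc30a1 (0.38) and Slc39a4 (-1.13), the last a 2.19-fold lower level in D2. Mtf1 and Slc39a4 did not overlap between the strains there, nor did 20.6% of all genes. Single mice decided some calls by diet. Mt2 on the enriched diet (1.13, limma adjusted p = 0.0666) gained a call without B6 deficient replicate 2 or 3 (limma adjusted p = 0.039 and 0.0231). Those mice lie outside that comparison. It also gained one with array weights (limma adjusted p = 0.0214) and with only the groups compared (0.0152). With only the groups compared, the deficient calls of Mt1, Mt2 and Slc30a1 were lost (limma adjusted p = 0.0843, 0.0682 and 0.0694). On the deficient diet the Mt1 call was lost without B6 replicate 1 or 3 (1.05 and 0.95) and on the other Mt1 probe (1.28; limma adjusted p = 0.124), and the Slc30a1 call without B6 replicate 3, 4 or 5 or D2 replicate 1 or 3 (0.30 to 0.38). The Slc39a4 call on the enriched diet was lost without B6 replicate 3 (-0.34) or D2 replicate 5 (-0.31). The main Slc30a10 probe was not called on the other diets, while its second probe was, at -1.22 on the balanced diet (limma adjusted p = 0.000987) and -1.49 on the deficient diet (limma adjusted p = 0.00011). The main probe gained a call on the balanced diet without B6 balanced replicate 4 (-0.98), D2 balanced replicate 2 (-0.87) or D2 deficient replicate 1, and on the deficient diet without any 1 of 6 mice.

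The 6 group means of Mt1 ran from enriched D2 (16.43) through balanced D2 (15.48), deficient D2 (15.44) and enriched B6 (15.39) to deficient B6 (14.12) and balanced B6 (13.72). Neighbours in that order differed by more than the larger of their SDs at only 2 steps, below enriched D2 and below enriched B6. Enriched B6 livers thus lay 0.05 below deficient D2 livers, within the spread of either. For Mt2 the order was the same at the top 4 places, from 16.85 in enriched D2 (SD 0.23) to 15.73 in enriched B6 (SD 0.71), and balanced B6 (14.49, SD 0.78) lay above deficient B6 (14.33, SD 1.48). Slc39a4 ran from 15.35 in deficient B6 (SD 0.22) to 14.22 in deficient D2 (SD 0.12). Its steps beyond the SD were those between the strains (B6 enriched above D2 enriched) and between balanced and deficient D2.

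Other gene groups differed between the strains too, in a comparison in which 25.9% of all genes were higher and 24.2% lower in D2. All 10 Kupffer cell markers, which label the liver's resident macrophages, were lower in D2, with a summed signal of 50930 to 108300 in B6 and 33050 to 49150 in D2. Of the Kupffer cell genes, Adgre1 had the smallest adjusted p (-0.94). All 10 sinusoidal endothelial markers were lower too, led by Lyve1 (-2.24), with sums of 34020 to 47750 in B6 and 30470 to 35940 in D2. Of 20 acute phase genes 14 were higher and 1 lower in D2, among them Apcs (2.73) and Fga (1.59). Of 11 glucocorticoid-responsive genes 7 were lower and none higher, including Cdkn1a (-4.62), Tat (-1.08) and Sgk1 (-0.75), and of 17 NRF2 targets 14 were lower and 1 higher, including Gclm (-0.76) and Hmox1 (-0.83). Of 7 cholangiocyte markers, which label bile duct cells, 1 was higher and 3 were lower, with sums of 4783 to 10920 in B6 and 3528 to 5482 in D2. Of 4 intestinal markers 2 were higher and none lower, with sums of 34950 to 62270 in B6 and 55300 to 73150 in D2. The part of these groups in the metallothionein difference was not tested.

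Mtf1, the zinc-sensing activator, gave different answers on different probes. Its main probe, made to an expressed sequence tag, ran from 8.77 to 9.43 in deficient D2 mice, from 9.13 to 9.79 in balanced D2 mice and from 9.23 to 9.89 in enriched D2 mice. In B6 the groups ran from 9.47 to 9.79 (deficient), 9.60 to 9.92 (balanced) and 9.35 to 9.84 (enriched). The means of the D2 groups, 9.18 to 9.58, were below those of the B6 groups, 9.64 to 9.77, and the deficient D2 mice read below all deficient B6 mice. The second probe, made to the RefSeq transcript, differed between the strains by -0.06 (SE 0.0454) and was not called. The third probe differed by 0.26 (limma adjusted p = 0.0504), but it was well above background on 11 of 30 arrays, so no direction is read from it. For the deficient diet alone the second probe gave 0.043 against -0.46 on the main probe. No diet comparison called Mtf1.

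Slc30a1, the plasma membrane zinc exporter, had a narrow range. Its groups ran from 11.06 to 11.66 (balanced B6), 11.43 to 11.87 (enriched B6), 11.18 to 11.73 (deficient B6), 11.42 to 11.67 (balanced D2), 11.34 to 11.88 (enriched D2) and 11.66 to 12.14 (deficient D2), so all of them overlapped with others. Its group means ran from 11.34 in balanced B6 to 11.86 in deficient D2, and no neighbours in the order of the 6 groups differed by more than the larger SD. Against the balanced diet it was 0.23 higher on the enriched diet (SE 0.0942; 9 of 10 mice) and 0.23 higher on the deficient diet (SE 0.0942; 8 of 10 mice), and neither was called (limma adjusted p = 0.231 and 0.146). The second probe gave 0.34 on the enriched diet (SE 0.112) and 0.07 on the deficient diet (SE 0.112). The strain difference was 0.22 on the main probe and 0.07 on the second, where it was not called.

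Slc30a10, known as a manganese exporter, was lower in D2 on both probes. Balanced B6 mice ran from 8.55 to 10.12 with a median of 9.79, and balanced D2 mice from 8.26 to 9.55 with a median of 9.06. Enriched B6 mice ran from 9.86 to 10.40, above all enriched D2 mice (8.45 to 9.53). On the deficient diet the strains overlapped, at 9.34 to 10.28 in B6 and 8.32 to 10.001 in D2 on the main probe. On the second probe they did not, at 9.23 to 9.96 in B6 and 7.25 to 8.73 in D2. The second Slc30a10 probe gave a larger strain difference, -1.45 (SE 0.157) against -0.82. By diet the gene was 0.32 higher on the enriched (SE 0.208) and 0.20 higher on the deficient diet (SE 0.208), and neither was called.

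**Figure D3:**
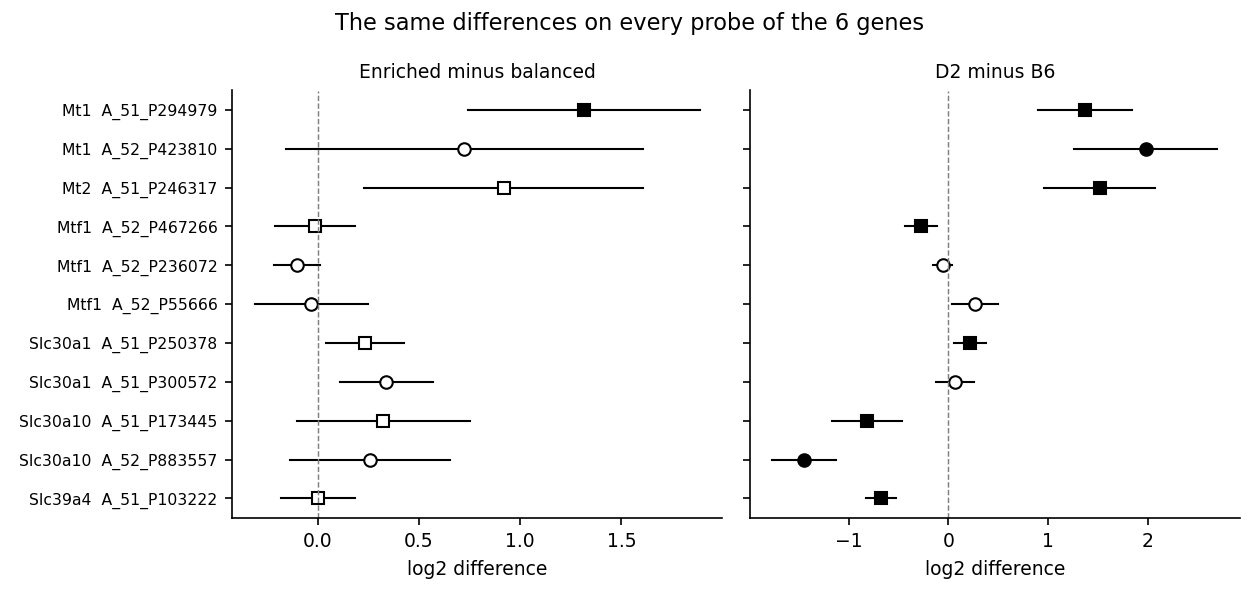
Differences on each of the 11 probes, for the enriched minus the balanced diet averaged over strains (left) and for D2 minus B6 averaged over diets (right), on log2 axes that differ between the panels. Squares mark the main probe of a gene, circles its other probes, lines 95% intervals, and filled symbols passed an adjusted p of 0.05 over all kept probes. The 2 Mt1 probes and the 2 Slc30a10 probes lie on the same side of 0, and of the Mtf1 probes in the strain comparison the one to the right of 0 was well above background on 11 of 30 arrays.

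Across the 30 mice, after each group's mean was taken away, Mt1 and Mt2 rose and fell together. Pearson's r was 0.95 and Spearman's rho 0.886, each with a permutation p of 1e-05, the smallest that 100000 resamples can give (two-sided). Without the 2 mice farthest from the median of Mt1, r was 0.922. B6 mice alone gave 0.963 and D2 mice alone 0.866. The arrays of scan day 2 gave 0.989, those of day 3 gave 0.976, and removing the slide as well gave 0.972. Within a day the mean of each group on that day was removed, so a mouse alone in its group added no information. This was so on day 2 for balanced B6, enriched B6 and enriched D2, and on day 3 for balanced D2. Every within-day r below has the same limit. With the other Mt1 probe r was 0.535 (permutation p = 0.003).

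**Figure D4:**
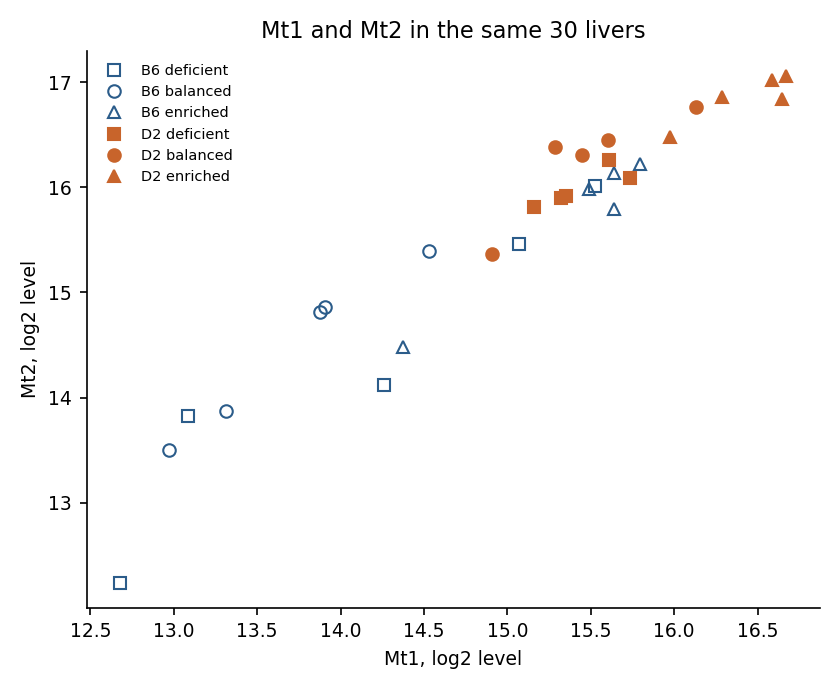
Mt1 against Mt2 in the same 30 livers, both as log2 levels before group means were removed. Open blue symbols are B6 mice and filled orange symbols D2 mice, with squares for the deficient, circles for the balanced and triangles for the enriched diet. The points run along 1 line from a deficient B6 mouse at 12.68 and 12.24 to the enriched D2 mice at the upper right.

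Of the 15 pairs among the 6 genes, 8 had a Pearson permutation p under 0.05 after Benjamini-Hochberg adjustment over the 15. Mice were shuffled across groups of unequal spread after group means were removed, so the permutation p-values are approximate and may be too small. The count of 8 is read with that limit. For Mt1 and Mt2 it was 0.00015. Slc30a10 and Slc39a4 rose together (r 0.656, rho 0.618; permutation p = 9e-05 and 0.00042, adjusted 0.000675 and 0.00265). Their r was 0.625 without the 2 farthest mice, 0.809 and 0.818 within scan days 2 and 3, 0.455 with 75th percentile scaling and 0.5 on the other Slc30a10 probe. Slc39a4 ran against Mt1 (r -0.525, rho -0.459; permutation p = 0.00352 and 0.0109, adjusted 0.0106 and 0.0328) and against Mt2 (r -0.509, rho -0.403; permutation p = 0.00549 and 0.0278, adjusted 0.0137 and 0.0596). Within scan days 2 and 3 the r with Mt1 was -0.862 and -0.482, and with Mt2 -0.829 and -0.407. Without the 2 mice farthest from the median of the metallothionein they were -0.351 and -0.312 (permutation p = 0.0673 and 0.106). Those mice were B6 deficient replicates 2 and 3 for either gene. D2 mice alone gave an r of -0.609 for either pair, and with the slide removed it was -0.712 with Mt1 and -0.704 with Mt2. On the other Mt1 probe the r with Slc39a4 was -0.268. Mt2 and Slc30a10 had an r of -0.424 and a rho of -0.391 (permutation p = 0.0193 and 0.0331, adjusted 0.0362 and 0.062), with -0.886 and -0.369 within scan days 2 and 3 and -0.381 without the 2 farthest mice. On the other Slc30a10 probe that r was -0.242, and in D2 mice alone it was -0.25 on the main probe.

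Mtf1, on its main probe, ran against 3 transporter genes. With Slc30a1 r was -0.589 and rho -0.608 (permutation p = 0.00064 and 0.00053, adjusted 0.0024 and 0.00265), and without the 2 farthest mice r was -0.559. Within scan days 2 and 3 the r of this pair was 0.17 and -0.517. With Slc30a10 r was -0.613 and rho -0.562 (permutation p = 0.00032 and 0.0016, adjusted 0.0016 and 0.006), with -0.776 and -0.715 within days 2 and 3 and -0.482 without the 2 farthest mice. With Slc39a4 r was -0.44 and rho -0.409 (permutation p = 0.0144 and 0.0259, adjusted 0.0309 and 0.0596), with -0.851 and -0.557 within days 2 and 3 and -0.411 without the 2 farthest mice. With the other probes of these genes the 3 values of r reached -0.0253, 0.0601 and 0.191, so they depend on the probe. With Mt1 and Mt2 the r of Mtf1 was 0.181 and 0.146 (permutation p = 0.337 and 0.442), and neither pair passed. On other probes it ran from -0.534 to 0.328 with Mt1 and from -0.431 to 0.143 with Mt2. Slc30a1 had an r of 0.0949 with Mt1 and 0.135 with Mt2 (permutation p = 0.619 and 0.482). On other probes these reached 0.592 and 0.559.

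Outside the 6 genes, likeness was measured as Pearson's r over the 30 mice after each strain's mean was removed, across 14891 named genes, as a description. Nearest to Mt1 were Mt2 (0.936), the oestrogen receptor gene Esr1 (0.864), the lysosomal cation channel gene Mcoln1 (0.81), Sec14l4 (0.758) and the mitochondrial iron importer Slc25a28 (0.72). Nearest to Mt2 were Mt1, Esr1 (0.816), Mcoln1 (0.774), Haus1 (0.728) and Sec14l4 (0.725). Esr1, Mcoln1 and Sec14l4 stood in both lists, which is no separate support because Mt1 and Mt2 themselves ran together. Nearest to Slc30a10 were Crip2 (0.817), the tight junction gene Cldn1 (0.811), Mad2l2 (0.801), Dhrs9 (0.789) and Fnbp1l (0.784). Nearest to Slc39a4 were Crocc (0.765), Man2a2 (0.743), Cox7a1 (0.733), Whamm (0.707) and Unc93b1 (0.691). Nearest to Slc30a1 were Peg12 (0.815), Lpar6 (0.804), Frat1 (0.758), Gatm (0.716) and Zfp764 (0.712), and nearest to Mtf1 were Zfp276 (0.799), Mmaa (0.788), Ppp1r3b (0.786), Tsc22d3 (0.779) and Tigd5 (0.77). These mice share the diets, slides and scan days, which such an r includes.

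The other genes of the zinc pathway are set beside the shares of all genes called, which were 2.23% (enriched against balanced), 8.08% (deficient against balanced) and 8.84% (enriched against deficient). For the enriched diet the median difference was 0.03 for the Slc30 genes, -0.04 for the Slc39 genes and -0.23 for the other reported Mtf1 targets, beside 0.01 over all genes. The other metallothioneins, Mt3 and Mt4, were not called by diet (Mt3 was 0.32 higher on the enriched diet, limma adjusted p = 0.311), and Mt3 was lower in D2 (-0.61; limma adjusted p = 0.000103). Of 6 other Slc30 family genes tested, 0 were called by limma in any of the 3 diet comparisons averaged over strains, and at an unadjusted p under 0.05 the counts were 0, 0 and 2 (enriched against balanced, deficient against balanced, enriched against deficient). The smallest adjusted p was 0.0831, for Slc30a6 (0.17, enriched against deficient). Between the strains 1 was higher in D2, Slc30a5 (0.40), and 2 were lower, Slc30a7 (-0.72) and Slc30a9 (-0.16). Over all genes 25.9% were higher and 24.2% lower in D2. Of 12 other Slc39 family genes tested, 0 rose and 1 fell on the enriched diet, and 1 rose and 1 fell on the deficient diet: Slc39a11 fell on the enriched (-0.26) and on the deficient diet (-0.30), and Slc39a6 rose on the deficient diet (0.25). Between the strains 4 were higher in D2, led by Slc39a1 (0.65), and 2 were lower, beside the same shares of all genes. Slc39a10 was lower on the enriched than on the deficient diet (-0.48; limma adjusted p = 0.0073). Of 8 other reported targets of Mtf1, Gclc, which starts glutathione synthesis, rose on the enriched diet (0.58) and Selenow fell (-0.26). Tff3, a secreted trefoil peptide, was lower on the enriched than on the deficient diet (-2.19; limma adjusted p = 0.00102).

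Some genes for copper and manganese, which metallothioneins and Slc30a10 handle, were called, beside 2.23% of all genes on the enriched and 8.08% on the deficient diet. Of 11 copper genes 1 rose and 2 fell on the enriched diet: ceruloplasmin (Cp, 0.39), the plasma copper carrier that also oxidises iron, rose, and the copper importer Slc31a1 (-0.18) and the copper chaperone Ccs (-0.19) fell. Of 8 manganese genes 1 rose and 1 fell on each diet. Slc11a2, which imports iron and manganese, fell on the enriched diet (-0.54) and rose on the deficient diet (0.55), and Slc40a1, the iron exporter ferroportin, rose on the enriched (0.51) and fell on the deficient diet (-0.30). Of 17 NRF2 targets 6 rose on the enriched diet (median 0.27), among them Akr1b8 (1.47), Abcc4 (0.75) and Gsta2 (1.11), and of 11 glucocorticoid-responsive genes 1 rose, Sgk1 (0.92). Of 20 acute phase genes 0 were called by limma on the enriched diet, and 6 had an unadjusted p under 0.05, with Crp (-0.37; adjusted p = 0.0709) nearest to the threshold. On the deficient diet 1 rose and 4 fell, among them Saa4 (-0.70) and Saa3 (-0.77). Of 11 copper genes 0 were called on the deficient diet by limma, also 0 at an unadjusted p under 0.05.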

How the data were processed

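Total liver RNA, labelled with Cy3, was hybridised to Agilent 4x44K arrays. The deposited signal intensities are the scanner software's processed signal, background-subtracted, per the file headers, which name Feature Extraction 9.1.3.1 where the labels name 9.5.1; the deposited value table is identical (largest difference 0) and holds 0 columns of other samples. The scale was linear and the column medians lay between 58.9 and 117.

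From each array 1639 control spots and outlier spots were left out, spots of a probe were averaged, and the 41173 probes were quantile-normalised, set to at least 13.9 (the median of the arrays' lowest signals well above background) and taken to log2. Probes well above background on at least 3 B6 and 3 D2 arrays were kept (29986), and a gene was read from its kept probe with the highest mean. Names came from a RefSeq table of GRCm38.p6 (22950 probes by accession, 6659 by symbol, 11564 under the name in the files). 1 model of 6 group means was fitted with limma 3.58.1 (R 4.3.3) in place of the analysis of variance in the submitters' text, and p-values were adjusted by Benjamini-Hochberg over all 21071 genes at 0.05. Each gene has 1 spread shared by the 6 groups, so its SEs and intervals do not follow groups of unequal spread. The script was tested on simulated data. Correlations used 100000 permutations of levels minus group means, shuffled over all mice and not within groups. The number of arrays limits precision. Of the 600 member spots 0 were saturated.

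The genes and lists were chosen with earlier results of these data known. All 6 genes and their probes are named, up to 4 genes per other list and comparison by smallest adjusted p, and the 5 genes nearest each in correlation. Alternatives covered normalisation, background correction, filter, floor, probe, groups in the fit, variance, array weights, slide, scan day and each mouse left out.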

Additional observations from a re-analysis of the deposited data

Results flagged for a closer look

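In 5 of 36 groups of 5 mice, 1 mouse lay far from the other 4, with a gap to the nearest of them above 0.71 of the group's range. Chance gives about 1 such group in 20 where values are normal and groups independent. The 36 groups share mice across genes, so the count is not read as an excess. Mt1 in B6 enriched replicate 5 was 14.37, the lowest of its group (up to 15.8), 1.12 below the next mouse. Mt2 in the same mouse was 14.48 (group up to 16.22), 1.31 below the next. Slc30a10 in B6 balanced replicate 4 was 8.554 (group up to 10.12), 1.12 below the next. Slc39a4 in the same mouse was 14.68 (group up to 15.43), 0.61 below the next, and this mouse was the highest of its group for Mt1 (14.53) and Mt2 (15.40). Slc39a4 in D2 deficient replicate 5 was 14.01 (group up to 14.3), 0.23 below the next.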

How the results depend on the processing

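No paired analysis was possible because the replicate numbers follow the order of the samples and pair no mice across groups. The 78 differences of the 6 genes gave 3665 values under alternatives: 3428 kept direction and side of the threshold, 104 lost a call, 23 gained one, 4 reversed, and 106 uncalled values changed sign. The reversals were all Mtf1, D2 against B6. Averaged over diets it was 0.26 on the third probe, which was well above background on 11 of 30 arrays. On the deficient diet it was 0.038 with normexp correction, 0.043 on the second probe and 0.15 on the third. The strain calls of Slc30a10 and Slc39a4 averaged over diets held under every alternative run, and those of Mt1 and Mt2 were lost only within scan day 2 (adjusted p = 0.0907 and 0.178). The Mtf1 strain call was lost with the mean of its probes (-0.02), with normexp (-0.05), on its second probe (-0.06) and within scan day 2 (-0.21). That of Slc30a1 was lost with the mean of its probes (0.14), without normalisation (0.13), with normexp (0.18) and on its second probe (0.07). The Slc30a1 call was also lost within scan day 2 (0.26) and scan day 3 (0.22). Causes were not tested.

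Genes called among the 6 moved by over 1.5 times as follows. Enriched against balanced averaged over strains, 1 became 0 with the mean of kept probes, with slide as a block and within days 2 and 3. In B6, 1 became 0 with the mean of kept probes and within days 2 and 3. Enriched against deficient, 2 became 1 with only the groups compared, without the filter and with scan day as a block, and 0 with slide as a block and within days 2 and 3. Deficient against balanced in D2, 1 became 0 with slide as a block and within days 1, 2 and 3, and averaged over strains 0 became 1 within day 3. D2 against B6 averaged over diets, 6 became 2 within day 2. On the balanced diet 3 became 0 within day 1, 1 within day 2 and 0 within day 3. On the enriched diet 3 became 0 with slide as a block and within days 2 and 3. On the deficient diet 5 became 2 with only the groups compared and 1 within days 2 and 3. With 1 mouse left out, the counts ran from 3 to 4 (strains, balanced), 3 to 6 (deficient), 1 to 4 (enriched), 0 to 1 (deficient against balanced in D2) and 1 to 2 (enriched against deficient), and did not move elsewhere. Smaller moves under other alternatives took 6 to as few as 4 (strains averaged), 3 to between 2 and 4 (balanced, enriched) and 5 to between 4 and 6 (deficient). Within-day fits hold as few as 1 mouse in a group, assumed to vary like the others.

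Over all genes, counts moved by over 1.5 times as follows. Enriched against balanced, 469 became 791 with array weights, 806 with scan day and 302 with slide as a block; in B6, 1228 became 713 without normalisation and 328 with only the groups compared; in D2, 19 became 133, 0 and, with array weights, 62. Deficient against balanced, 1703 became 981 without normalisation; in B6, 378 became 24 (groups compared) and 65 (slide); in D2, 986 became 452 (no normalisation) and 296 (groups compared). Enriched against deficient, 1863 became 1152 with slide. The enrichment difference between strains, 234, became 894 (no normalisation), 364 (floor of 32) and 365 (scan day), and the deficiency difference, 4, became 7 (cyclic loess), 12 (floor of 32), 2 (intensity trend), 0 (slide) and 9 (scan day). Counts within day 2 ran from 3 to 6140 and within day 3 from 8 to 8196. Without normalisation the median of all genes reached -0.289 (strains, enriched diet), where it was -0.034 in the main fit. The share of calls that were higher moved from 54.6% to 24.8% (enriched against balanced), 48.1% to 69.5% (deficient against balanced) and 53% to 14.9% (enriched against deficient). Removing the slide, and leaving out each mouse, were added for Mt1 and Mt2 after seeing the data; r without 1 mouse ran from 0.934 to 0.973.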
